A study of Homo sapiens with 6 samples.

Results

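Expression of 8 transcription factors that set intestinal and hepatic cell identity (CDX1, CDX2, HNF4A, HNF4G, GATA4, GATA6, FOXA2 and FOXA3) was described in xenografts of a pancreatic cancer cell line. They are 8 of 34423 genes named on the array and were represented by 14 probes, taken as every non-control spot carrying one of these gene names. The 8 were selected on measured values, namely the differences between DFX-treated and control tumors in these same 6 tumors. Those differences are therefore given as a description, with no test.

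BxPC-3, a line established from 1 human pancreatic adenocarcinoma, had been injected subcutaneously into young adult female BALB/c (nu/nu) mice, which lack mature T cells. The DFX group (3 tumors) came from mice given deferasirox, an oral iron chelator, as a saline suspension by gavage at 200 mg/kg every second day with 3 doses a week. The control group (3 tumors) came from mice given the vehicle alone, and all tumors were removed after 21 days. RNA of 1 tumor was hybridized to each of 6 one-color human arrays on 1 slide. The control tumors lay in one row of the slide and the DFX tumors in another, so row and treatment cannot be told apart. Mouse RNA of the host may also hybridize to human probes. In a bulk tumor, fewer cells of a type and less RNA per cell cannot be told apart. Nothing in the labels says how the 3 tumors of a group were raised apart, so errors given here measure the spread between these samples.

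CDX1 and CDX2 are homeobox factors of the intestinal epithelium, where CDX2 is required for an intestinal rather than a gastric or esophageal fate. HNF4A and HNF4G are nuclear receptors that bind DNA as dimers and maintain enterocyte and hepatocyte genes, many of them for lipid transport and sugar metabolism. GATA4 and GATA6 are zinc finger factors of gut and pancreas endoderm, and FOXA2 and FOXA3 are forkhead factors that can open closed chromatin ahead of other regulators. The 4 families bind many of the same enhancers in gut and liver.

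Levels are quantile-normalized log2 intensities of the background-subtracted signal, and differences are DFX minus control on that scale, with the standard error (SE) of the limma fit. On each array the scanner flagged 50.3% to 56.5% of probes as well above background, and correlations between arrays ran from 0.980 to 0.990. A probe was tested where its detection p-value was under 0.05 on all 6 arrays, which kept 31807 probes of 22718 genes. Where a gene had several tested probes, the brightest stands for it. A gene or probe is referred to as called when its unadjusted limma p was under 0.05. By that rule 8.41% of all probes and 7.98% of all genes were called, with 3.68% of genes higher and 4.29% lower in DFX tumors. After Benjamini-Hochberg adjustment limma called 0 probes, the lowest adjusted p being 0.0675. Of 10 listed ductal and general epithelial markers 9 were tested, and 8 were well above background on every array. Among these 8 were KRT7, KRT18, KRT19, EPCAM and CDH1. CFTR reached that level on 5 arrays, and SLC4A4 was not tested.

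All 8 factors had a tested probe, and 11 of their 14 probes were tested. A total of 6 factors had a brightest probe well above background on all 6 arrays. The brightest HNF4A probe and the brightest GATA4 probe reached that level on only some arrays. By its brightest probe each of the 8 factors had a higher mean in DFX tumors, although CDX1 was at -0.03 after median scaling and FOXA2 at -0.04 without control tumor 1. The median difference was 0.44, beside -0.01 over all tested genes. CDX2 was the 1 factor called, beside 7.98% of all genes. CDX2 and GATA6 were the 2 factors whose groups did not overlap, with DFX above control, as was the case for 7.03% of all genes. Nothing is read from these shares, because the same differences were known when the factors were chosen.

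**Figure D1:**
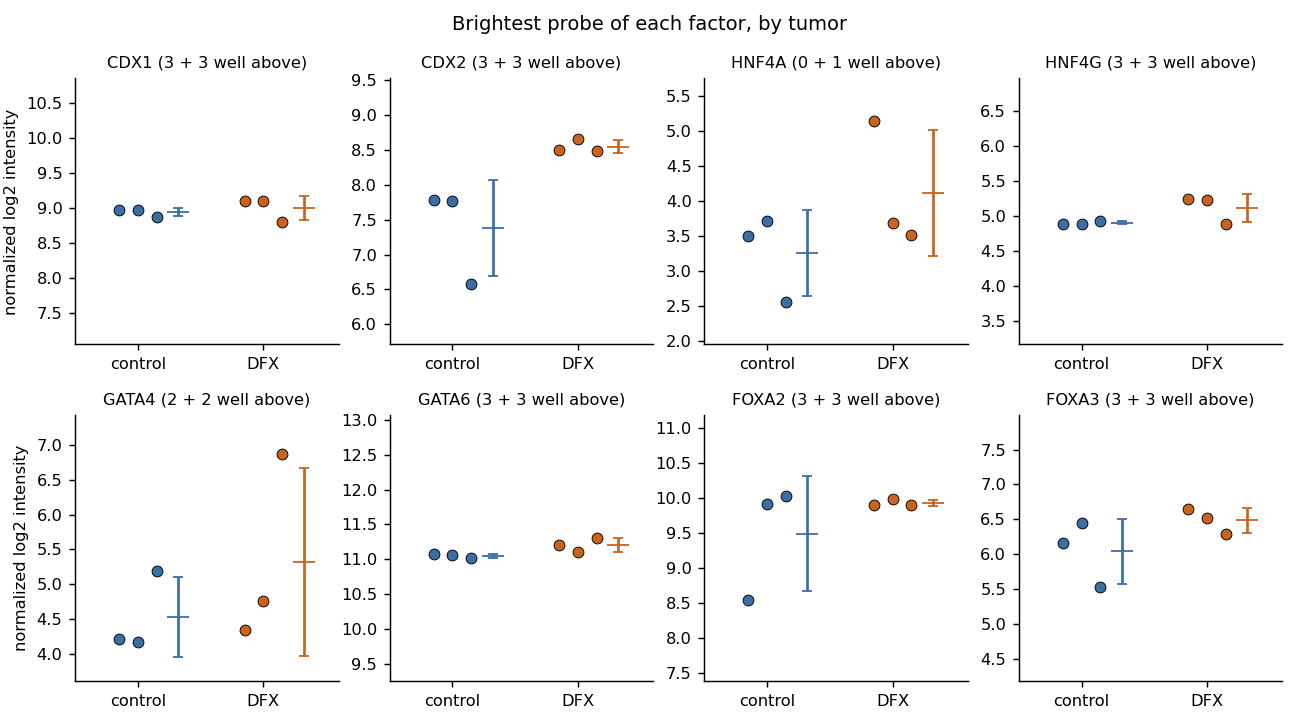
Normalized log2 intensity (vertical axes, each spanning the same number of log2 units) of the brightest probe of each factor in 3 control tumors (blue) and 3 DFX tumors (orange). Points are tumors in replicate order, bars are mean ± SD, and panel titles give how many control + DFX arrays were well above background. CDX2 and GATA6 show no overlap, a low control tumor 3 is seen for CDX2, HNF4A and FOXA3, a low control tumor 1 for FOXA2 and a high DFX tumor 3 for GATA4.

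CDX2 gave the largest difference of the 8 with all tumors included, although GATA4, at 1.12 and 1.28, exceeded CDX2, at 0.77 and 1.19, without control tumor 3 and without DFX tumor 1. Its single probe lies on the minus strand of chr13:28536302-28536361 (hg19, from the array annotation) and starts at base 2006 of its transcript, NM_001265. The level was 7.78, 7.77 and 6.58 in control tumors 1, 2 and 3. In DFX tumors 1, 2 and 3 it was 8.50, 8.65 and 8.48. The 3 DFX tumors lay close together and above every control tumor, while control tumor 3 stood apart below the other 2. The means were 7.38 ± 0.69 and 8.54 ± 0.09 (SD, n = 3), a difference of 1.17 (SE 0.34) or 2.24-fold. The difference was 0.77 without control tumor 3 and 1.37 without control tumor 1, the lowest and highest values over all alternatives. With all tumors kept it was 0.89 with the raw mean signal and 1.19 with 75th percentile scaling. The probe was well above background on all 6 arrays.

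CDX1 did not share this pattern. Its bright probe (chr5:149563184-149563243, hg19) covers the last codons of the gene, and its sequence is printed here because it shows that the probe ends on the coding sequence's stop codon:

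CDX1 probe: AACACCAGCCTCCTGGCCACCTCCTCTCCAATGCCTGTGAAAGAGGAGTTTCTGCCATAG

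This probe read 8.97, 8.97 and 8.87 in control tumors against 9.10, 9.10 and 8.80 in DFX tumors. The groups overlapped, with DFX tumor 3 the lowest of the 6, and the difference was 0.06 (SE 0.12). A second CDX1 probe downstream at chr5:149563427-149563486 was not tested, because it failed detection, and was well above background only in DFX tumor 1.

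HNF4A, which regulates the largest set of enterocyte and hepatocyte genes listed here, was near the limit of detection. Its only probe has 60 bases but its hg19 position, chr20:43036102-43042379, covers a far longer stretch, so it crosses an intron and reads spliced RNA. The annotated transcript is NM_001030004, and the sequence is shown because it is the single measurement of this gene:

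HNF4A probe: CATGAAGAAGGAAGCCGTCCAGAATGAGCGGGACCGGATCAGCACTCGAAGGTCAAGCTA

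The level was 3.50, 3.72 and 2.56 in control tumors against 5.14, 3.69 and 3.51 in DFX tumors. DFX tumor 1 was high and the only tumor well above background, and the other 2 DFX tumors lay within the control range. With no control array and only DFX tumor 1 well above background, no bound on the HNF4A difference can be given. For some other genes with no array of 1 group well above background, a bound is given below. It compares the brighter group's mean with a floor on each dimmer array. That floor is the weakest signal still flagged as well above background, unless the probe itself read higher. Arrays of the brighter group that were not well above background enter as read, and the bound is then approximate. The fitted difference of HNF4A was 0.85 (SE 0.52). It was 0.34 without DFX tumor 1, 0.51 without control tumor 3, 0.15 with normexp correction and 0.12 with the raw mean signal.

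HNF4G, a paralog prominent in gut, was measured by 3 probes. The bright one gave 4.89, 4.88 and 4.92 in control tumors against 5.24, 5.22 and 4.88 in DFX tumors, well above background on all arrays. DFX tumors 1 and 2 were higher than the controls and DFX tumor 3 was level with them, for a difference of 0.22 (SE 0.13), or 0.08 with normexp correction. The other 2 probes gave 0.30 (SE 0.67) and 0.81 (SE 0.42). The first was well above background on 1 array and the second on none.

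GATA6, a regulator of the classical pancreatic cancer program as well as of gut endoderm, was bright and steady. It read 11.08, 11.06 and 11.01 in control tumors against 11.21, 11.11 and 11.31 in DFX tumors. The groups did not overlap, but the difference was only 0.16 (SE 0.10), or 1.12-fold, and 0.04 after median scaling. GATA4, its paralog in stomach and proximal intestine, gave 4.22, 4.18 and 5.20 in control tumors against 4.35, 4.76 and 6.86 in DFX tumors. DFX tumor 3 was far above the rest and control tumor 3 was the highest control, while the other 4 tumors were alike. The GATA4 difference of 0.79 (SE 0.70) became 0.02 without DFX tumor 3, and 0.39 with normexp correction. None of the other 3 GATA4 probes was well above background on any array. The tested one gave -0.29 (SE 0.40), and those not tested gave -0.02 and 0.005.

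FOXA2, needed for formation of foregut endoderm, read 8.55, 9.91 and 10.03 in the control tumors. In the DFX tumors it read 9.91, 9.99 and 9.90. Control tumor 1 was low and the other 5 tumors were alike, so the difference of 0.44 (SE 0.40) was -0.04 without that tumor. FOXA3, a forkhead factor of liver and intestine, read 6.16, 6.44 and 5.53 in control tumors against 6.65, 6.52 and 6.29 in DFX tumors. The groups overlapped by control tumor 2 and DFX tumor 3, and the difference was 0.44 (SE 0.25). Without control tumor 3, which was the lowest, it was 0.18, as it was with normexp correction.

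**Figure D2:**
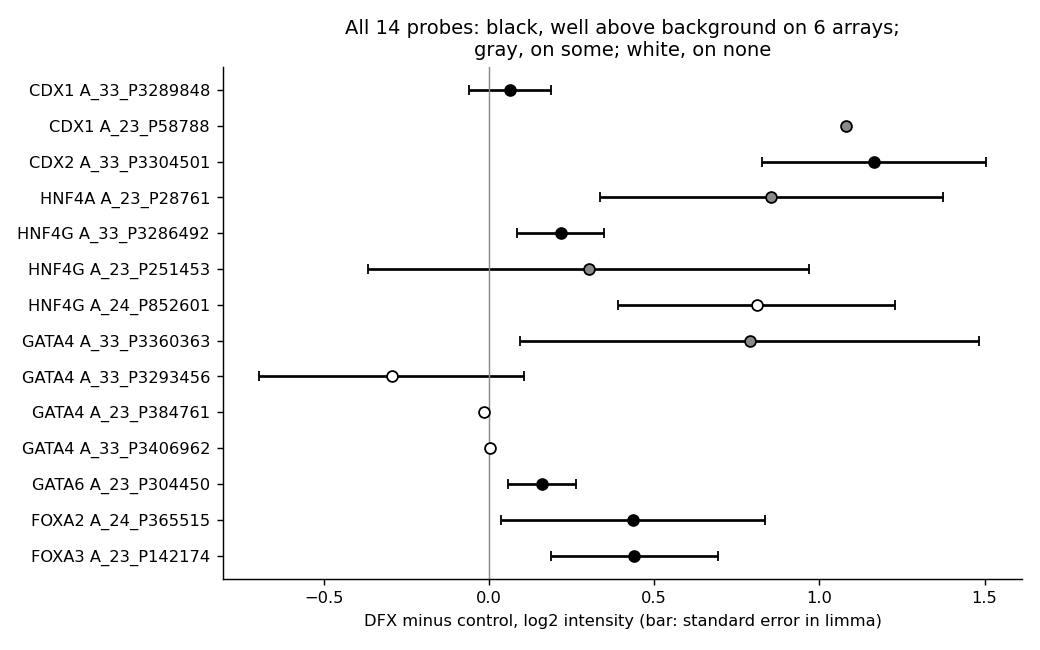
Difference between DFX and control tumors (horizontal axis, log2 intensity) for all 14 probes of the 8 factors, n = 3 tumors per group. Bars are the limma standard error and the 3 points with no bar are probes that were not tested. Black points, the 6 probes well above background throughout, include the CDX2 probe, which has the largest difference among them.

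The factors therefore differed in which tumors set their means. Within the control group, control tumor 3 was below the mean of the other 2 by a large margin for CDX2 (-1.19), HNF4A (-1.05) and FOXA3 (-0.77). The same gap was small for CDX1 (-0.10), GATA6 (-0.05) and HNF4G (0.04), and it was positive for FOXA2 (0.81) and GATA4 (0.996). The pooled SD of CDX2 within groups, 0.49, stood at percentile 95.1 of the tested probes well above background on all arrays. FOXA2 stood at percentile 97.1, with a pooled SD of 0.59. GATA6 stood at percentile 7.77, with a pooled SD of 0.07.

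RefSeq windows of the 250 bases before the gene start (GRCh38.p14) were found for 4 of the 8 factors, CDX2, GATA6, FOXA3 and HNF4A. The CDX2 window, chr13:27969316-27969565 on the minus strand, is printed because it holds the letters of 2 of the other families. Capitals mark a reverse match to the GATA letters AGATAA, 119 to 114 bases before the start, and a reverse match to the FOXA letters TGTTTAC, 13 to 7 bases before it:

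CDX2 promoter: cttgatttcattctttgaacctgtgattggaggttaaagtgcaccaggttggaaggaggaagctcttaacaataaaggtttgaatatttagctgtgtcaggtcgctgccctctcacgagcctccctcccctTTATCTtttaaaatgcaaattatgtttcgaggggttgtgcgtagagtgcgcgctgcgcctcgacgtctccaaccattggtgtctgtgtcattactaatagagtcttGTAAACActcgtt

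Both strands were searched in all 35116 windows of the table. AGATAA was found in 9.17% of them and TGTTTAC in 2.98%. Among the 5 windows of the 4 factors, AGATAA was present in those of CDX2 and HNF4A. The CDX letters TTTATG, the HNF4 letters CAAAGTCC and the HNF1 consensus were found in none of the 5. A match is a description of the sequence, and whether any factor binds there was not measured.

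Partner factors were taken from lists of 43 genes of the same networks, of which 30 were tested. By the call rule 3 were higher and 2 lower, and their median difference was 0.09. In the list of HNF1, ONECUT and other paralogs, 0 of 5 tested genes were called by limma at the unadjusted threshold. FOXA1, the forkhead factor of the same family, named with its values in view, was at 0.02 (SE 0.20).

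Of 16 tested intestinal factors other than the members, 2 were higher and 2 lower, and the median was 0.21. NR1I2, the xenobiotic receptor PXR of liver and intestine, read 2.23, 3.79 and 2.06 in control tumors and 5.10, 5.25 and 4.71 in DFX tumors. Every DFX tumor was well above background and no control tumor was, so NR1I2 was at least 2.08-fold higher. CREB3L3, a membrane-bound factor of enterocytes and hepatocytes, was at 4.20, 4.11 and 4.16 in control tumors and 5.56, 6.14 and 4.65 in DFX tumors, a difference of 1.30 (SE 0.36). TBX3 went the other way and was at least 1.17-fold lower by a probe well above background in 2 control tumors and no DFX tumor. A second TBX3 probe, not well above background on any array, gave 0.15 (SE 0.19). GFI1, a repressor in secretory cell development that was named after its values were seen, was lower by the call rule at -0.41 (SE 0.15), with groups that touched at 6.47.

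Among 5 tested liver factors the median was -0.03. NR0B2, the corepressor SHP that limits bile acid synthesis, read 3.67, 4.20 and 2.17 in control tumors and 5.97, 6.68 and 5.12 in DFX tumors. All DFX tumors were above all control tumors. The fitted difference was 2.58 (SE 0.62), but only 1 control tumor was well above background and the size depends on how background is treated (0.78 with normexp correction and 0.67 with the raw mean signal). TBX3 belongs to this list too and was its 1 gene called lower. The 5 tested pancreatic and foregut factors had 0 calls by limma at the unadjusted threshold and a median of 0.02.

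Genes described as targets of the 4 families were then counted, to set the factors beside the genes they regulate elsewhere. Of 63 listed targets 41 were tested, and 15 were higher and 1 lower by the call rule, beside 3.68% and 4.29% of all genes. Means were above control for 34 and below for 7, and the median difference was 0.66, beside -0.01 for all genes. The groups did not overlap with DFX above for 15 of the 41 targets and with DFX below for 1, beside 7.03% and 8.41% of all genes. Among the 22 targets well above background on all arrays, 5 were higher and 0 lower, with a median of 0.56. For targets and partners together 21 of 70 genes were called, a count that was 13 without DFX tumor 1 and 23 without control tumor 2. After adjustment 0 targets were called by limma. The target lists were chosen with earlier results of these data known, so nothing is read from these shares.

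CDX targets of the intestine had the largest median, 1.33, with 7 of 13 tested genes higher and 1 lower. Their levels were lowest in control tumor 3. Without that tumor the median of all targets together was 0.45 in place of 0.66. SI, the sucrase-isomaltase of the brush border, read 2.96, 4.28 and 2.01 in control tumors and 6.64, 6.37 and 5.18 in DFX tumors. It was well above background in every DFX tumor and in no control tumor, and was at least 4.17-fold higher. KRT20, the keratin of differentiated intestinal cells, read 6.94, 7.68 and 5.27 in control tumors and 9.40, 9.41 and 8.45 in DFX tumors. The groups were apart and the difference was 2.46 (SE 0.64), the same tumors being lowest in each group as for SI. CA1, a carbonic anhydrase of colon epithelium, differed by 2.74 (SE 0.94) with groups that overlapped and 1 control tumor well above background. The difference was 0.77 with normexp correction and 0.67 with the raw mean signal. Its call was lost without control tumor 1 (2.47), control tumor 3 (2.09), DFX tumor 1 (2.71) or DFX tumor 2 (2.21).

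The remaining CDX targets called higher were GPA33, VIL1, GUCY2C and ALPI, which were named after their values were seen. GPA33, an intestinal surface antigen, differed by 2.15 (SE 0.81), and VIL1, the actin bundler of microvilli, by 1.33 (SE 0.51). GPA33 read 8.17, 9.47 and 6.27 in control tumors and 10.21, 10.68 and 9.47 in DFX tumors, with groups that touched at 9.47. VIL1 read 8.99, 9.66 and 7.55 in control tumors and 10.14, 10.03 and 10.03 in DFX tumors. Control tumor 3 was the lowest for both genes. GUCY2C, the guanylin receptor, was at least 2.33-fold higher, with 2 DFX tumors and no control tumor well above background. ALPI, an intestinal alkaline phosphatase, reached that level in only 1 DFX tumor and no control tumor, so no bound is given. CLDN2, a claudin of leaky tight junctions, was the 1 target lower, at 5.25, 5.40 and 5.22 in control tumors and 4.88, 4.83 and 4.45 in DFX tumors. The difference was -0.57 (SE 0.15), with no overlap. MUC2, the goblet cell mucin and also named with its values in view, was at -0.18 (SE 0.20) by its brightest probe. Its 3 dimmer probes gave -0.10 (SE 0.12), 0.62 (SE 0.25) and -0.15 (SE 0.56), the last well above background on 1 array.

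HNF4 targets had a median of 0.66, with 7 of 17 tested genes higher and 0 lower. FABP1, the fatty acid binding protein of enterocytes and hepatocytes, read 3.16, 4.45 and 2.45 in control tumors and 7.82, 8.50 and 6.64 in DFX tumors. The lowest DFX tumor exceeded the highest control tumor, and the fitted difference was 4.30 (SE 0.66). Only 1 control tumor was well above background, so the size of this difference rests largely on control signal near background. TM4SF4, a tetraspan membrane protein of liver and gut, read 4.22, 6.20 and 3.93 in control tumors and 7.83, 7.98 and 7.13 in DFX tumors. The groups were apart here too, with a difference of 2.86 (SE 0.63).

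The HNF4 targets were not alike. PCK1, the gluconeogenic enzyme, was at least 3.71-fold higher and MTTP, the lipid transfer protein of lipoprotein assembly, differed by 0.51 (SE 0.19). MEP1A, a brush border protease, differed by 1.18 (SE 0.48). APOM, an apolipoprotein, was at 0.08 (SE 0.14). F7, a clotting factor, was at -0.18 (SE 0.27). SERPINA1, the liver's antitrypsin, was higher by 0.50 (SE 0.15). Its call was lost without control tumor 3 (0.42), DFX tumor 1 (0.47) or DFX tumor 2 (0.40). All of these besides SERPINA1 were picked for mention with values in view.

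GATA targets of the gut had a median of 0.64, with 2 of 8 tested genes higher and 1 lower. The 3 called genes, SI, FABP1 and CLDN2, are also on the CDX or HNF4 list, so this list holds no call of its own. TFF1 and TFF2, trefoil peptides of gastric mucus that were named after their values were seen, had DFX above control without overlap at 0.50 (SE 0.21) and 0.78 (SE 0.34) and were not called. FOXA targets of liver and gut had a median of 0.32, with 1 of 7 higher and 0 lower. That gene was CPS1, the first enzyme of the urea cycle, which read 9.01, 8.96 and 8.97 in control tumors and 9.25, 9.23 and 9.44 in DFX tumors. The difference of 0.33 (SE 0.11) was small and steady, but its call was lost without control tumor 2 (0.32) or DFX tumor 3 (0.26), and after median scaling (0.23).

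The size of the differences at dim genes depended on how background was treated, and the bounds given above hold only for the background-subtracted signal. With normexp correction SI differed by 0.94, FABP1 by 1.92, TM4SF4 by 1.36, NR1I2 by 0.45 and CREB3L3 by 0.40. With the raw mean signal these values were 0.77, 1.70, 1.24, 0.39 and 0.35. CLDN2, TBX3 and VTN were at -0.20, -0.30 and -0.32 with normexp correction, and SERPINA1 was at 0.22. Each of these 9 genes was still called, as were CA1 and NR0B2. KRT20 was less affected, at 1.81 and 1.73.

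**Figure D3:**
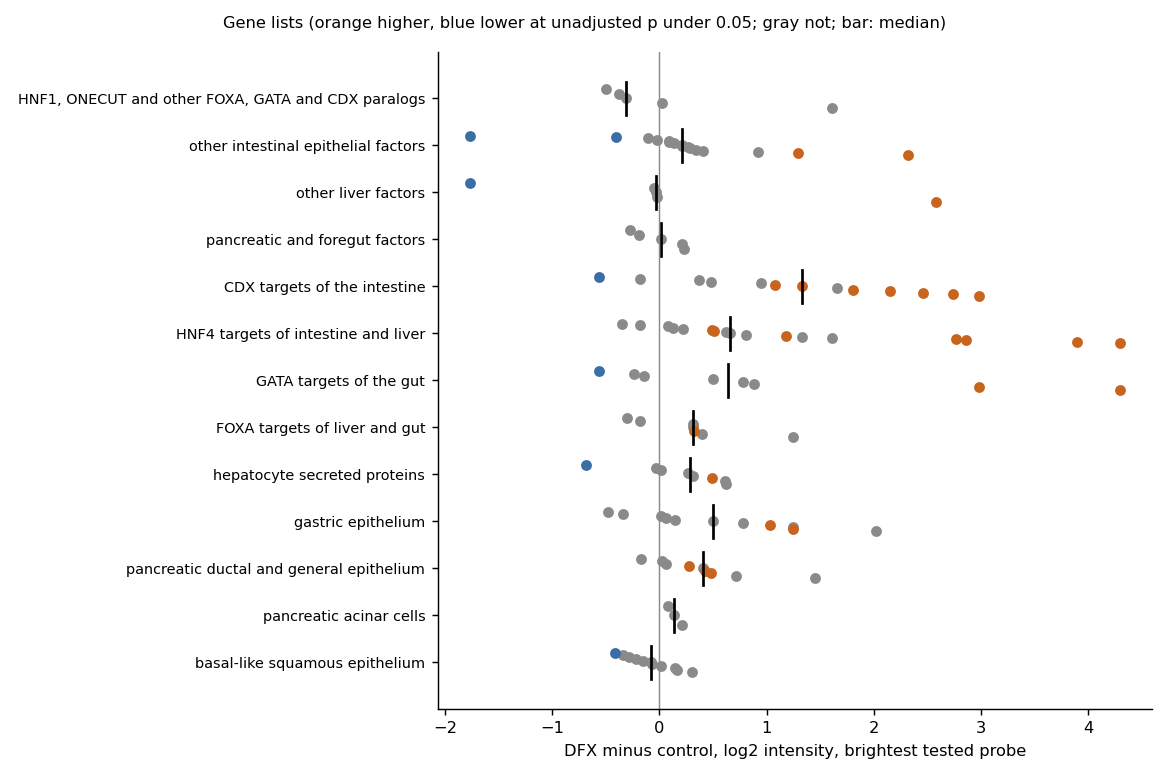
Difference between DFX and control tumors (horizontal axis, log2 intensity) of each tested gene in the partner, target and lineage lists, n = 3 tumors per group. A point is a gene by its brightest tested probe, orange if called higher, blue if called lower, gray if not called, and the black bar is the list median. Points of the CDX and HNF4 target lists reach far to the right, with medians of 1.33 and 0.66, while the basal-like list lies around -0.08.

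Tumor by tumor, target levels moved with CDX2 in some places and not in others. Each target was centered on its mean over the 6 tumors, and the median of the 13 CDX targets was -0.50, 0.09 and -1.19 in control tumors and 0.97, 0.88 and 0.29 in DFX tumors. Control tumor 3, in which CDX2 was lowest, also had the lowest median. This was not particular to the targets. Control tumor 3 was also lowest for the median of the gastric epithelium markers (-0.80) and of the ductal and general epithelial markers (-0.35). The basal-like median was 0.14 there. Against the mean of the other 2 tumors of the same group, 30 of 41 targets were lower in control tumor 3, with a median gap of -0.62, beside 47.9% of all genes lower. In DFX tumor 3, 33 of 41 targets were lower with a median gap of -0.34, beside 51.0% of all genes. The CDX2 gap in that tumor was -0.10, close to those of DFX tumors 1 and 2 (-0.06 and 0.16). These are counts over genes of single tumors, with no replicate of the tumor and no test.

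**Figure D4:**
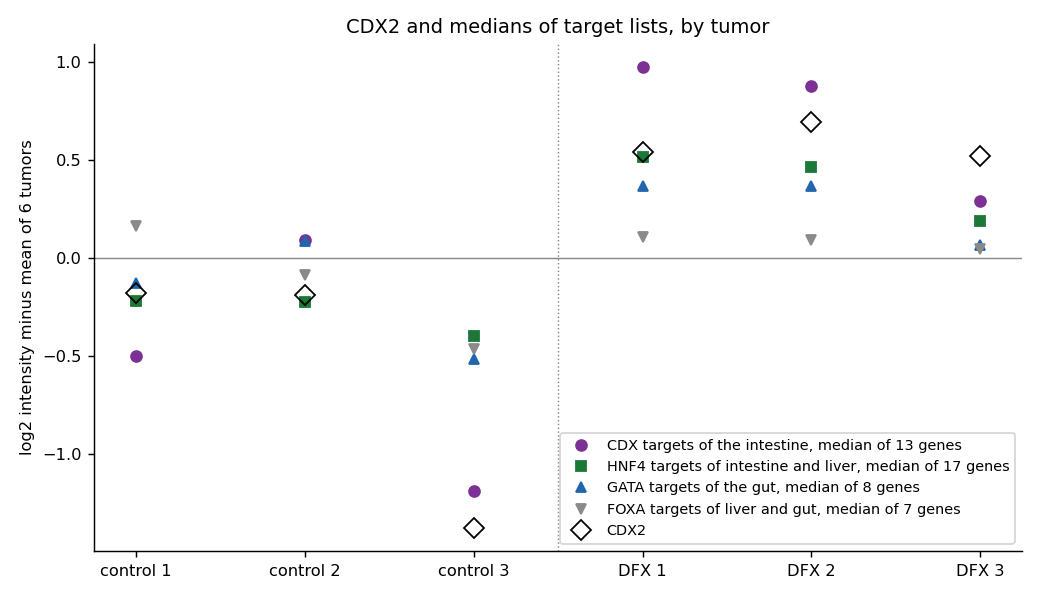
CDX2 and the median of each target list in the 6 tumors (vertical axis, log2 intensity minus the mean of the 6 tumors; horizontal axis, tumors). Each symbol is 1 list median or, for the open diamond, the CDX2 probe. CDX targets run from -1.19 in control tumor 3 to 0.97 in DFX tumor 1, and in DFX tumor 3 every list median is below those of DFX tumors 1 and 2, while CDX2 spans only 0.17 over the 3 DFX tumors.

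Promoter windows were found for 41 of the 63 targets, in 52 windows. These are not the same 41 genes as the tested targets, since AFP, OTC, APOC2 and APOA2, for example, have windows but were not tested. TTTATG was present in 13 of the 52 (25.0%) and in 9.64% of all windows, and CAAAGTCC in 6 of the 52 (11.5%) and in 1.02% of all. AGATAA was present in 8 of the 52 (15.4%), TGTTTAC in 1 (1.92%) and the HNF1 consensus in 1 (1.92%), the last being found in 0.296% of all windows. These shares pool all target lists. Of the genes with TTTATG only HEPH, KRT20, MUC2 and SI are on the CDX list. Of those with CAAAGTCC, APOC2, OTC and SLC5A1 are on the HNF4 list and ALPI, FUT2 and GPA33 on the CDX list. The letters were chosen after matches had been seen and several targets were first described through such sites, so the shares are a description. The windows of SI and FABP1 are printed because these genes had the largest differences on the CDX and HNF4 lists. FABP1 is on the HNF4 list, but CAAAGTCC was not found in its window. Capitals mark TTTATG or its reverse. SI, chr3:165078497-165078746 on the minus strand, has matches that start 236, 139 and 43 bases before the gene start. FABP1, chr2:88128063-88128312 on the minus strand, has a reverse match 89 to 84 bases before it:

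SI promoter: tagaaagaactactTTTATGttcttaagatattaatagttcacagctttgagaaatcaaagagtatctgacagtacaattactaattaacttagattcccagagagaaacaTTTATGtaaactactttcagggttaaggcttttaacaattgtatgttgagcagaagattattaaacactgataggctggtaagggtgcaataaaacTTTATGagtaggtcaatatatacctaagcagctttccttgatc

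FABP1 promoter: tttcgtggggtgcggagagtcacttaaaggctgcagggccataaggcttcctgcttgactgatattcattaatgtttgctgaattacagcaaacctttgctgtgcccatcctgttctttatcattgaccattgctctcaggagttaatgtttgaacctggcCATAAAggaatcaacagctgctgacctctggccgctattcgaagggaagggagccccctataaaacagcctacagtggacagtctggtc

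Genes with a profile like a factor's were ranked by the root mean square (RMS) difference between log2 profiles centered on their mean over the 6 tumors, among 17801 genes well above background on all arrays. CDX2, whose own RMS was 0.71, was closest to CCRL2 (0.0816), CA13 (0.125), LYPD2 (0.163), LRRC66 (0.174) and PRKAR2B (0.175). CCRL2, an atypical chemokine receptor, read 6.27, 6.24 and 5.15 in control tumors and 7.13, 7.13 and 6.84 in DFX tumors. CA13, a cytosolic carbonic anhydrase, read 7.36, 7.56 and 6.22 in control tumors and 8.04, 8.04 and 7.96 in DFX tumors. Both shared the low control tumor 3 and the close DFX tumors. In all, 119 genes were nearer to CDX2 than 0.5 times its own RMS, and none of the 5 closest was on a target list.

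FOXA3 (own RMS 0.36) was closest to TFF1 (0.0621), the trefoil peptide, then to PLEKHA6 (0.0808), GPR35 (0.0970), WWC1 (0.101) and ACY3 (0.101). FOXA2 (own RMS 0.53) was closest to NID2 (0.0825), a basement membrane protein that read 8.55 in control tumor 1 and between 9.69 and 9.87 in the other tumors. LRP8 (0.130), FADS1 (0.150) and a pair of unnamed transcripts came next. The single low control tumor is what these profiles share. CDX1, HNF4G and GATA6 had own RMS values of 0.11, 0.16 and 0.10, so nearly flat genes lay close to them, with SORBS3 (0.0216), a long noncoding transcript (0.0292) and XYLT2 (0.0237) as the nearest. HNF4A and GATA4 were not ranked, since their probes were too dim.

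**Figure D5:**
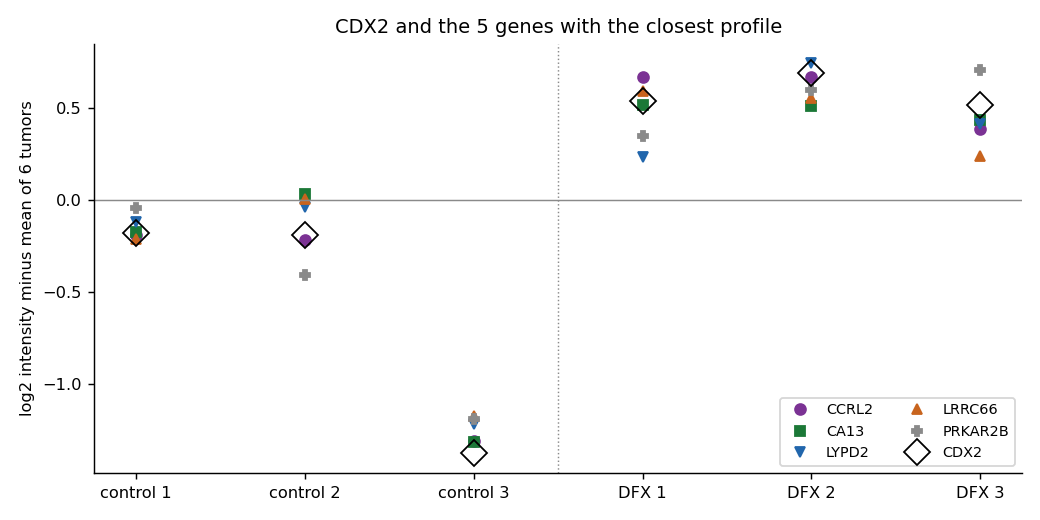
CDX2 and the 5 genes with the closest profile in the 6 tumors (vertical axis, log2 intensity minus the mean of the 6 tumors; horizontal axis, tumors). Each symbol is 1 gene by its brightest tested probe. All 6 genes are lowest in control tumor 3 and highest in DFX tumors, a shape by which the 5 were picked.

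Lineage markers were set beside the factors. Of 16 hepatocyte secreted proteins 8 were tested, with 1 higher, 1 lower and a median of 0.29, and albumin and alpha-fetoprotein (ALB and AFP) did not pass detection. VTN, the plasma protein vitronectin, read 6.03, 5.83 and 6.29 in control tumors and 5.26, 5.51 and 5.32 in DFX tumors, a difference of -0.69 (SE 0.15) with no overlap. SERPINA1 was the 1 gene higher. Gastric epithelium markers had 2 of 11 tested genes higher, 0 lower and a median of 0.50. VSIG1, a junction protein of gastric epithelium, differed by 1.25 (SE 0.29) and CTSE, a gastric cathepsin, by 1.04 (SE 0.42). The CTSE call was lost without any 1 of the DFX tumors, at 0.88, 1.09 and 1.14 without DFX tumors 1, 2 and 3, and with no filter on dim probes. Without control tumor 3 the CTSE difference was 0.56 and was called.

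Ductal and general epithelial markers had 3 of 9 tested genes higher, 0 lower and a median of 0.40. EPCAM, an epithelial adhesion molecule, read 13.39, 13.36 and 13.17 in control tumors and 13.78, 13.79 and 13.65 in DFX tumors, a difference of 0.43 (SE 0.11). KRT8 and KRT18, the paired keratins of simple epithelium, differed by 0.48 (SE 0.16) and 0.27 (SE 0.10). Other probes of KRT8 gave -0.12 (SE 0.11) and 0.24 (SE 0.14) and another of KRT18 gave 0.15 (SE 0.11). The KRT8 call was lost without control tumor 2 (0.45), control tumor 3 (0.37), DFX tumor 1 (0.47) or DFX tumor 2 (0.43), and after median scaling (0.37). The KRT18 call was lost without control tumor 1 (0.27), control tumor 3 (0.24), DFX tumor 1 (0.25) or DFX tumor 2 (0.27), and after median scaling (0.15) or 75th percentile scaling (0.25). Acinar markers had 0 calls by limma among 3 tested genes and a median of 0.14.

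Basal-like squamous markers had 0 of 11 genes higher, 1 lower and a median of -0.08. SERPINB13, a serpin of stratified epithelium, was lower at -0.42 (SE 0.15), and its call was lost without control tumor 2 (-0.34), control tumor 3 (-0.39), DFX tumor 1 (-0.34) or DFX tumor 2 (-0.42). TP63, the defining factor of that lineage, was at 0.16 (SE 0.13). KRT5 and KRT14, its basal keratins, were at 0.14 (SE 0.15) and -0.29 (SE 0.18), these 3 genes being named after their values were seen.

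Markers of host cells were measured on the same arrays, and the called ones are named after their values were seen. Fibroblast markers had 1 of 8 tested genes higher (LUM, 0.87) and 1 lower (DCN, -1.30), and their summed linear level ran from 14251 to 23571 in control tumors and from 13173 to 16218 in DFX tumors. PDGFRB did not pass detection. Leukocyte markers had 0 calls by limma among 6 tested genes, with sums of 2220 to 2709 and 2299 to 2591, and CD163, CSF1R and LYZ did not pass detection. Endothelial markers had 1 of 5 higher (PECAM1, 1.27), with sums of 530.2 to 994.6 and 605.6 to 658.3. TEK and CLDN5 did not pass detection and KDR was not well above background on any array.

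Red blood cell genes had 0 of 5 higher and 2 lower, HBA2 at -1.93 and HBD at -1.12, with sums of 6739 to 8023 in control tumors and 3122 to 3287 in DFX tumors. HBA1 and ALAS2 did not pass detection. The red blood cell sums moved with treatment alongside CDX2 and its targets, and their part in those results was not tested.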

How the data were processed

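RNA of 3 control and 3 DFX tumors was measured on 60-mer one-color arrays, 1 tumor per array. The authors deposited 1 scanner file per array, which gives per spot its intensities (raw mean, local background, processed signal after background subtraction), its p-value against background and flags. The submitters' notes name Agilent Feature Extraction 9.5.1.1 and the file headers 10.7.1.1. The deposited table of the authors' processed intensities was used as an alternative. All columns were mapped to samples by title.

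The study's methods give log2 transformation and quantile normalization of raw signal intensities without naming the column. Here both steps were applied to the background-subtracted processed signal at 58717 non-control spots, with the raw mean signal as an alternative. As a step of this work, 1398 outlier spot values were left out, and spots of a probe were averaged (50599 probes). Probes whose detection p, as the median over spots, was under 0.05 on all 6 arrays were kept (31807). DFX was compared with control in limma 3.58.1 (lmFit, eBayes, prior degrees of freedom 2.04, R 4.3.3), and p-values were adjusted over all tested probes by Benjamini-Hochberg. No spot was saturated, and the number of arrays limits the precision. The procedure was tested on simulated data.

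The 8 factors, the partner, target and marker lists and the motifs were chosen with earlier results of these data known. Named genes are the 8 factors with every probe, up to 3 called genes per list by size of difference, and the genes closest in profile, other genes being named as chosen after their values were seen. Some genes under this rule are not reported here. Gene names and hg19 positions are those of the array annotation, and promoter sequences are from RefSeq (GRCh38.p14). The paired numbering of the tumors was checked by the correlation of deviations from group means between tumors of the same number. It was 0.03, 0.03 and 0.02, so the numbers were not taken as pairs.

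Alternatives covered scaling, background correction, the signal column, outlier flags, the filter on dim probes, the authors' table, the mean of a gene's probes, a replicate block and each tumor left out. Median scaling was added after seeing the data.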

Additional observations from a re-analysis of the deposited data

How the results depend on the processing

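Under the other settings the 8 factors' median difference of 0.44 was 0.162 with normexp correction, 0.146 with the raw mean signal, 0.377 with median scaling and 0.326 over the 6 factors well above background on all arrays. It ran from 0.348 to 0.625 when 1 tumor was left out. With 75th percentile scaling 2 factors were called in place of 1 (HNF4G joined CDX2), and 1 to 2 were called when 1 tumor was left out, HNF4G joining without DFX tumor 3 and FOXA3 without control tumor 2. Of partner and target genes 10 were called in place of 21 when only probes well above background on all arrays were tested. Fewer genes were then tested, and the share of targets called was also lower among bright genes. In the main fit 39% of the 41 tested targets were called, beside 22.7% of the 22 well above background on all arrays. With 1 tumor left out, 13 to 23 partner and target genes were called.

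The targets' median difference stayed between 0.35 and 0.89 over all alternatives, and the count of called probes (2675) between 1889 and 3774. Of called probes 58.8% were lower in DFX tumors, a share of 42.6% when arrays were scaled to the 75th percentile. It was 71.8% when they were scaled to the median, which moved the median of all genes to -0.10. With the replicate number as a block, 2419 probes and 22 partner and target genes were called and the CDX2 difference was 1.17, and CPS1 and KRT18 lost their calls. Among 20 named genes other than the factors, 259 of 290 values kept direction and call, 31 lost the call and 0 changed direction. Signal over background limits every gene whose probe was not well above background on all 6 arrays.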
